A study of Mus musculus with 12 samples.

Results

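The 42 genes described here encode the machinery that copies DNA, from the proteins that load the helicase at origins to the enzymes that supply nucleotides. They were chosen by name, with earlier results of these data known. Each of the 42 was found by its Ensembl identifier in the deposited table of 35275 mouse genes. RNA was measured in hematopoietic stem cells of C57BL/6 mice, sorted by flow cytometry into TRIzol. The 4 groups had 3 libraries each. KO mice (Thpo-/-), which lack the gene of the cytokine thrombopoietin, received Romiplostim or no drug, and WT mice (Thpo+/+) likewise received Romiplostim or no drug. Romiplostim is an agonist of the thrombopoietin receptor and was given into a vein at 100 µg/kg per day for 10 days. The protocol names PBS for the controls, whose own label reads untreated. Neither the promoter or construct behind the KO allele nor the age of the mice is given in the sources used here. The labels do not say that replicates are separate animals, so p-values measure the spread between these samples only.

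Before S phase, the origin recognition complex, CDC6 and CDT1 load the ring of MCM proteins onto DNA in an inactive form. MCM10, CDC45 and the GINS complex turn that ring into a moving helicase, and polymerase alpha with its primase starts each strand. Polymerases delta and epsilon extend the strands while held by the sliding clamp PCNA, and ribonucleotide reductase makes the deoxynucleotides. Most hematopoietic stem cells of an adult mouse rest outside the cell cycle, and many replication genes are transcribed when E2F factors are released from pocket proteins at the entry into S phase.

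The promoters of 6 of the genes are shown because they cover the range of what was found in the RNA. Orc1, Cdc6 and Pold1 hold an E2F word and differed between untreated KO and untreated WT cells. Mcm6 and Rfc3 hold 3 and 2 such words and did not pass the test in that comparison, and Rrm2, which had the largest change of all, holds none. Sequences are from RefSeq (GRCm38.p6), from 250 bases before to 50 bases after the start site, written 5′ to 3′ on the strand of the gene. Capitals mark the words TTTCCCGC, TTTCGCGC, TTTGCCGC or TTTGGCGC, read on either strand; of the 3 words in Mcm6, 2 overlap each other.
Orc1 (chr4:108579204-108579503, plus strand): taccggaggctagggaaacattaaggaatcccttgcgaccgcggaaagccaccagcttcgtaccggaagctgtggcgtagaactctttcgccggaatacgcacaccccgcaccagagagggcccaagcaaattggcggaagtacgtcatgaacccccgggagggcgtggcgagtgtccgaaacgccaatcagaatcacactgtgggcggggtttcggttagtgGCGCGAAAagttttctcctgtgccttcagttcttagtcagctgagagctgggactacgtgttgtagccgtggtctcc
Cdc6 (chr11:98907901-98908200, plus strand): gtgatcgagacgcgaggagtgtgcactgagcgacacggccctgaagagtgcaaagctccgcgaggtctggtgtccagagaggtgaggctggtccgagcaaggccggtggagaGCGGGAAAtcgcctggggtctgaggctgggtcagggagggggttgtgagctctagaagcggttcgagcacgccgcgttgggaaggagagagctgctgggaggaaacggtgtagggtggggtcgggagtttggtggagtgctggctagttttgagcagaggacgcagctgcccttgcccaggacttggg
Pold1 (chr7:44548766-44549065, minus strand): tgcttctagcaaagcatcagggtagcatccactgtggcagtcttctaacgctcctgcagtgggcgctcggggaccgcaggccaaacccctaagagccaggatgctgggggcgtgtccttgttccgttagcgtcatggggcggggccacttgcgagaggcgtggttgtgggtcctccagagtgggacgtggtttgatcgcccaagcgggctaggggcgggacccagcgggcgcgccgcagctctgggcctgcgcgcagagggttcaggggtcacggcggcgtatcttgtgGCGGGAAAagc
Mcm6 (chr1:128359656-128359955, minus strand): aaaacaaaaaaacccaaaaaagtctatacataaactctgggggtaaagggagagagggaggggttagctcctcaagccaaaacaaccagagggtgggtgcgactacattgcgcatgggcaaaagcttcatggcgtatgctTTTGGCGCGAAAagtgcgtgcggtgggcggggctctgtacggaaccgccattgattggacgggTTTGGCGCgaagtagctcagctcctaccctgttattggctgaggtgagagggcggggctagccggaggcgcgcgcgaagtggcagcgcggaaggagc
Rfc3 (chr5:151651159-151651458, minus strand): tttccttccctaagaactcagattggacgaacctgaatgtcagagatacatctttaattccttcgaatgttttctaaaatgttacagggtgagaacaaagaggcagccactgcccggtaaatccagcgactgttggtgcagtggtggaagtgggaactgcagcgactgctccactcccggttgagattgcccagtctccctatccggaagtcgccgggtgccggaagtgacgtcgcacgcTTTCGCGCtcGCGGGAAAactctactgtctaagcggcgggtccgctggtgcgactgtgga
Rrm2 (chr12:24708004-24708303, plus strand): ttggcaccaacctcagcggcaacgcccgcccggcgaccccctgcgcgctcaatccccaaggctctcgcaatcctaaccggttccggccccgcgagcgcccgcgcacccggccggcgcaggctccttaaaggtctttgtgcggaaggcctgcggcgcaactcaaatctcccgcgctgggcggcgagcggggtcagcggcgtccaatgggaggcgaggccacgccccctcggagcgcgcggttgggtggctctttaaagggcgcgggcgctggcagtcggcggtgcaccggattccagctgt

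An E2F word stood in a promoter of 13 of the 35 replication genes that had one in the table (37.1%), against 2.6% of 27025 genes in all. The word was in 1 of 22 mitosis genes (4.55%), a list of kinases, cyclins and kinesins that act after replication. The CCAAT word, or its reverse ATTGG, stood in promoters of 62.9% of the replication genes, 77.3% of the mitosis genes and 41.1% of all genes. The CHR word TTTGAA, or its reverse TTCAAA, which is known from promoters of late cell cycle genes, was in 14.3% of the replication genes, 68.2% of the mitosis genes and 20.2% of all genes. A match of letters describes the window and does not show that a factor binds there.

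**Figure D1:**
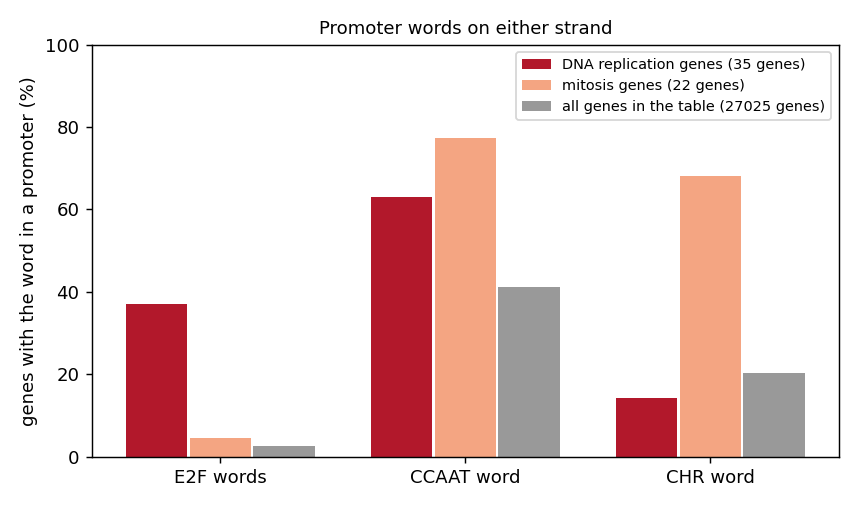
Share of genes (%) with an E2F, CCAAT or CHR word in a promoter, for the replication genes (35 with a promoter), the mitosis genes (22) and all genes of the RefSeq promoter table (27025). E2F words were in 37.1% of the replication genes and 4.55% of the mitosis genes, and the CHR word was in 14.3% and 68.2%.

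Values are FPKM, which divide the fragments of a gene by its length and by library depth. That depth came to an estimated 27.5 to 35.3 M fragments per library. Thpo itself was listed at 0 in 10 of the 12 libraries and never exceeded 0.0426 FPKM, so it does not check the genotype labels. The stem cell markers, 12 genes such as Procr, Slamf1 and Hlf, were present in every library and summed to 857 to 1393 FPKM in treated KO, 543 to 685 in untreated KO, 1105 to 1440 in treated WT and 1448 to 1755 in untreated WT. Markers of other cells were also present, and those of B cells were higher in each untreated KO library than in any library of the other groups. The 10 B cell markers summed to 96.2 to 655 FPKM in treated KO, 1716 to 4237 in untreated KO, 67.2 to 70.4 in treated WT and 86.8 to 98.4 in untreated WT. The 12 myeloid markers summed to 3004 to 4389, 7221 to 32390, 1889 to 5933 and 1877 to 3966 FPKM in the same order of groups, and the 11 erythroid markers to 2706 to 9877, 5159 to 16540, 1553 to 1963 and 2098 to 2925. The 9 T and NK cell markers summed to 172 to 395, 366 to 508, 269 to 312 and 126 to 170 FPKM, the 8 megakaryocyte markers to 322 to 744, 289 to 555, 457 to 611 and 224 to 683, and the 11 stromal and macrophage markers to 57.6 to 121, 1229 to 2409, 27.3 to 36.7 and 64.0 to 79.0. Cd8a was at 0 in every WT library, Pax5 in the 3 treated WT libraries, and Klrd1 and Ncr1 in the 3 untreated WT libraries. The labels give no sex. The mean of 4 Y-linked genes was 0.00537 to 0.0389 FPKM in the 3 treated KO libraries and 11.3 to 24.9 in the 3 untreated KO libraries, whereas among WT libraries it was under 1 FPKM in treated replicate 1 and untreated replicate 2. Untreated KO replicates 1 and 3 also held 4.91 and 8.70 FPKM of Xist, an RNA of female cells, beside their Y-linked RNA. Each group was sequenced on its own run, and the effects of run and group cannot be told apart.

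Of the 42 genes, 41 passed the filter of at least 1 FPKM in at least 3 libraries. Fen1, the nuclease that trims lagging-strand fragments, did not pass, with 0.337 to 0.944 FPKM over the 12 libraries. Of its exon bases 78.8% are shared with Gm10143 on the opposite strand and the kit does not mark the strand, and whether this bears on its value was not tested. Gins2 and Chaf1a share 67.3% and 52.5% of their exon bases with Gse1 and Ubxn6 on the opposite strand. Smaller shares overlap an opposite-strand gene in others, among them Rfc2 (15.1%), Rfc4 (12.7%), Orc1 (10.8%), Rfc5 (10.7%) and Mcm7 (7.25% with Ap4m1). Reads in those shared bases may come from either gene.

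Per length, the levels spanned a wide range. In untreated WT cells Pcna was the highest with 584 ± 71.6 FPKM (mean ± SD, n = 3 in every group), followed by the helicase subunits Mcm7 with 346 ± 83.3 and Mcm6 with 311 ± 68.1, with Mcm7 above Mcm6 in each of the 3 libraries. Orc1, the largest subunit of the origin recognition complex, was the lowest of the tested genes with 8.24 ± 1.77 FPKM, next to the polymerase epsilon subunit Pole with 10.7 ± 3.25 and Gins3 with 11.2 ± 2.52. The subunits of the MCM ring, which join in equal numbers, were unequal in RNA, with Mcm7 at 7.20 ± 0.60 times the FPKM of Mcm4 in untreated WT libraries.

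In each group, 1 library tended to be low or high for most of the genes. Untreated KO replicate 3 was the lowest of its group for 39 of 41 genes, and untreated WT replicate 2 was likewise the lowest for 39 of 41. Treated WT replicate 1 was the highest of its group for 35 of 41, and treated KO replicate 3 was the lowest for 24 of 41. The spread within a group was therefore shared by most of the genes. The mean log2(FPKM + 1) over the 41 genes was 6.26 ± 0.08 in treated KO, 6.65 ± 0.20 in untreated KO, 6.20 ± 0.10 in treated WT and 6.16 ± 0.29 in untreated WT.

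**Figure D2:**
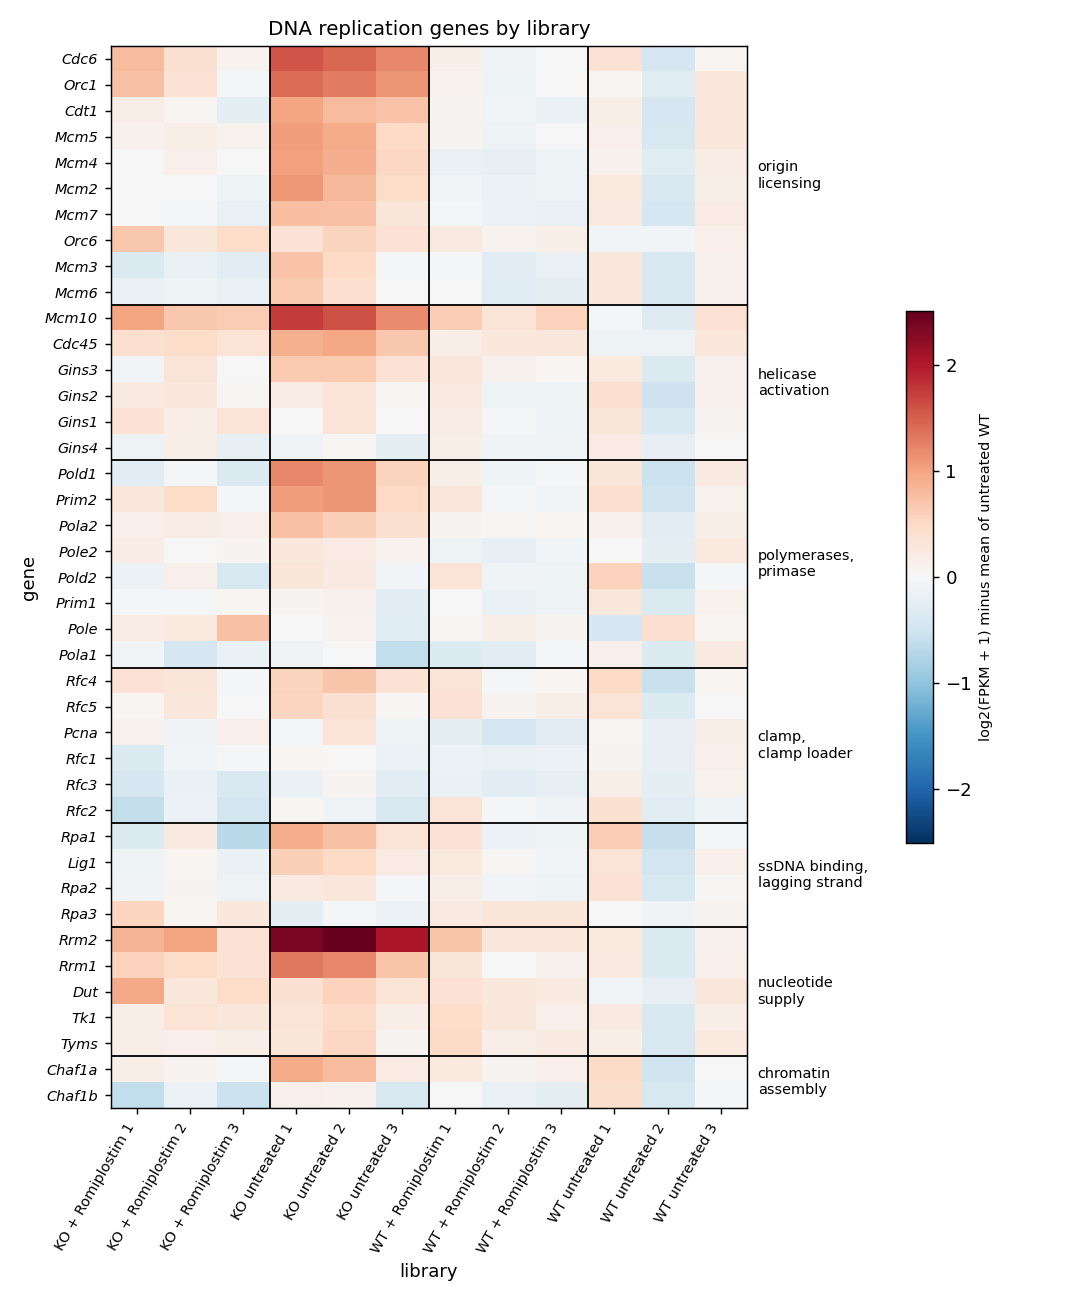
Level of each of 41 replication genes (rows, by role) in each of 12 libraries (columns) as log2(FPKM + 1) minus the mean of the 3 untreated WT libraries. Red is higher and blue lower, and the untreated KO columns are the reddest for Rrm2, Mcm10, Cdc6 and Orc1, while untreated WT replicate 2 is blue for most genes.

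The comparison of untreated KO with untreated WT cells asks what the lack of thrombopoietin changes. Genes that act at the start of replication were higher in KO cells: 8 of 10 genes of origin licensing and 3 of 6 of helicase activation passed the test. Ribonucleotide reductase, which supplies the deoxynucleotides, was higher in both its subunits. Genes of the sliding clamp and its loader did not pass in any of 6 cases. In all, 17 of 41 replication genes (41.5%) were higher and 0 were lower at an adjusted p under 0.05, while of all 12823 genes tested 22.1% were higher and 23% were lower. The median log2 fold change was 0.43 over the replication genes and −0.03 over all genes tested, and 32 of the 41 lay above 0. In these bulk samples more cells of a type or phase and more RNA per cell cannot be told apart.

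Among the genes of origin licensing, Cdc6, the loader of the MCM ring, had 53.1, 47.8 and 40.4 FPKM in untreated KO libraries against 22.2, 12.6 and 17.8 in untreated WT libraries. Each KO library was above each WT library, and the log2 fold change was 1.40 ± 0.21 (± SE; limma, adjusted p = 0.000335). The share of all genes without overlap between groups was not counted, here or in the comparisons below. Orc1 had 22.9, 21.3 and 18.6 FPKM in KO against 8.44, 6.38 and 9.90 in WT, again without overlap (1.26 ± 0.20, adjusted p = 0.000444). The licensing factor Cdt1 had 67.7, 59.04 and 56.02 FPKM in KO and 37.8, 25.03 and 40.6 in WT (0.83 ± 0.18). Orc6, a small subunit of the origin recognition complex, moved least of the 8, with 71.2, 80.9 and 71.2 FPKM in KO against 52.2, 52.6 and 60.4 in WT (0.43 ± 0.12, adjusted p = 0.0133), and its call was lost under quantile normalization and without untreated KO replicate 2.

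Of the 6 subunits of the MCM ring, Mcm5 (0.82), Mcm4 (0.81), Mcm2 (0.78) and Mcm7 (0.60) were higher in KO cells. Mcm4 had 97.3, 89.2 and 67.6 FPKM in KO and 51.1, 38.2 and 53.9 in WT, and Mcm7 had 573, 565 and 419 in KO and 396, 250.3 and 393 in WT. Neither pair of groups overlapped. Mcm3 (0.39 ± 0.20, adjusted p = 0.135) and Mcm6 (0.36 ± 0.19, adjusted p = 0.135) had values above 0 that did not pass. The intervals (95%) of these last ran from −0.05 to 0.83 and from −0.05 to 0.78, and both intervals hold the value of Mcm7. The call of Mcm7 was lost under 5 of 16 alternatives, among them the fits without untreated KO replicate 1 or 2 and without untreated WT replicate 2.

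Among the genes that activate the helicase, Mcm10, which joins the ring as it opens, had 41.9, 37.2 and 27.97 FPKM in untreated KO libraries against 11.5, 9.15 and 15.3 in untreated WT libraries. The lowest KO library was above the highest WT library, and the log2 fold change of 1.51 ± 0.19 (adjusted p = 0.000123) was second in size to that of Rrm2. Cdc45 had 80.05, 84.1 and 68.6 FPKM in KO and 38.9, 38.8 and 51.2 in WT (0.84 ± 0.13, adjusted p = 0.000316). Of the 4 GINS subunits only Gins3 passed (0.55 ± 0.17, adjusted p = 0.0223), and its call was lost under 4 of 16 alternatives. Gins1, Gins2 and Gins4 had log2 fold changes of 0.11, 0.18 and −0.09. The 4 proteins form 1 complex, and their RNAs did not all pass together.

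Of the 8 genes of polymerases and primase, 3 were higher in KO cells. Pold1, the catalytic subunit of polymerase delta, had 178, 166 and 113 FPKM in untreated KO libraries against 94.6, 52.98 and 90.4 in untreated WT libraries (0.95 ± 0.22, adjusted p = 0.00483). The primase subunit Prim2 had 50.5, 52.6 and 34.1 FPKM in KO and 32.5, 16.6 and 25.5 in WT (0.88 ± 0.24, adjusted p = 0.0111). Pola2, a regulatory subunit of polymerase alpha, had 70.3, 63.6 and 54.4 FPKM in KO and 45.1, 34.8 and 46.2 in WT (0.57 ± 0.13, adjusted p = 0.0039). These 3 did not overlap between the groups. Their partners did not pass: Pold2 had a log2 fold change of 0.15, Prim1 of −0.03 and the catalytic Pola1 of −0.23. The catalytic subunit of the other main polymerase, Pole, had 10.3, 11 and 8.19 FPKM in KO against 7.47, 13.97 and 10.6 in WT (−0.08 ± 0.21, adjusted p = 0.788). The ratio of Pold1 to Pole was 15.4 ± 1.76 in untreated KO libraries and 8.34 ± 4.44 in untreated WT libraries, with the WT value spread from 3.79 to 12.7.

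The genes of the clamp and its loader had the smallest median of the roles, 0.02. Pcna had 567, 728 and 539 FPKM in untreated KO libraries and 598, 506 and 647 in untreated WT libraries, which overlap (0.06 ± 0.15, adjusted p = 0.752, interval −0.26 to 0.38). The loader subunit Rfc4 had the smallest p of the 6, with 199.6, 219.7 and 173 FPKM in KO and 191, 91.8 and 139 in WT (0.54 ± 0.23, adjusted p = 0.0707). Among the genes of single-strand binding and the lagging strand, none of the 4 tested passed at the adjusted criterion, and 2 had an unadjusted p under 0.05. These were Lig1, which seals lagging-strand fragments (0.44 ± 0.19, adjusted p = 0.0772), and Rpa1, the largest subunit of the single-strand binding protein (0.66 ± 0.30, adjusted p = 0.0921). Lig1 had 109, 102 and 83.3 FPKM in KO against 90.9, 52.1 and 78.7 in WT, so that the lowest KO library lay below the highest WT library. The small subunit Rpa3 had 115, 133 and 124 FPKM in KO and 137, 129.6 and 144 in WT (−0.14 ± 0.12, adjusted p = 0.374).

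The largest change of the 41 genes was that of Rrm2, the small subunit of ribonucleotide reductase, which is made mainly in S phase. It had 535, 713 and 429 FPKM in untreated KO libraries against 123, 81.3 and 112 in untreated WT libraries. All KO libraries were far above all WT libraries (2.38 ± 0.23, adjusted p = 2.31e-05). The large subunit Rrm1 had 173, 161 and 112 FPKM in KO and 80.7, 53.8 and 75.2 in WT (1.07 ± 0.19, adjusted p = 0.000756). The ratio of Rrm2 to Rrm1 was 3.79 ± 0.67 in untreated KO and 1.51 ± 0.02 in untreated WT libraries. The other 3 genes of nucleotide supply did not pass: Dut, which removes dUTP, stood at 0.44 (adjusted p = 0.0654), thymidine kinase Tk1 at 0.32 and thymidylate synthase Tyms at 0.30 (log2 fold changes). Dut did not overlap between the groups, with 358, 413 and 351 FPKM in KO and 263, 238 and 335 in WT. Of the chromatin assembly factor, which places histones behind the fork, Chaf1a had 25.3, 22.7 and 14.8 FPKM in KO and 18.2, 8.78 and 12.8 in WT, which overlap (0.64 ± 0.23, adjusted p = 0.0431), and its call was lost under 8 of 16 alternatives. Its partner Chaf1b had a log2 fold change of −0.06.

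**Figure D3:**
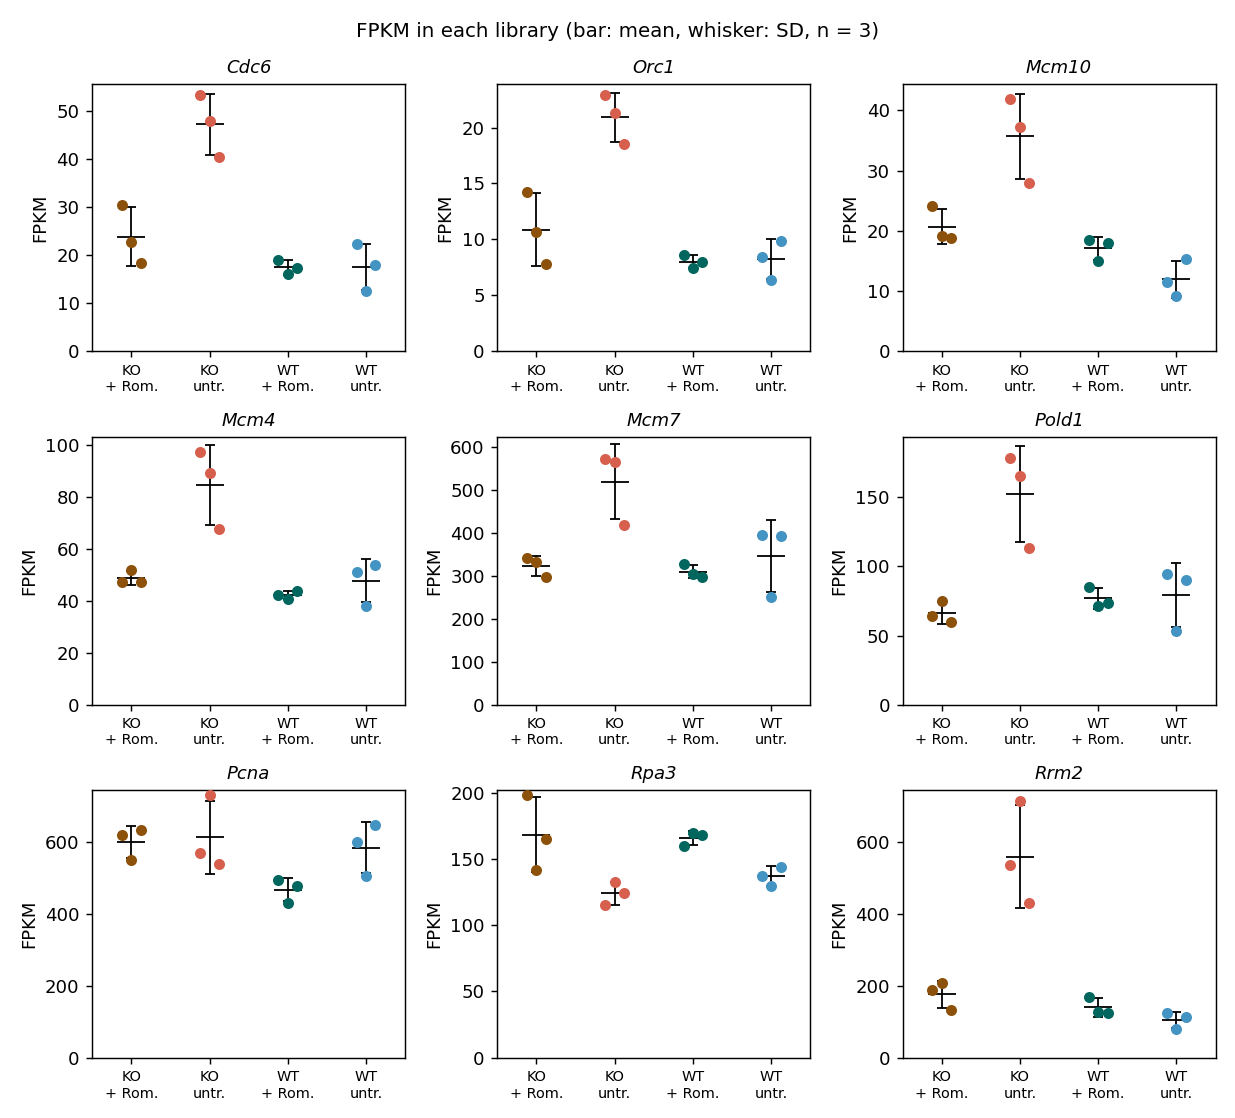
FPKM of 9 replication genes in each library, in KO given Romiplostim, untreated KO, WT given Romiplostim and untreated WT, from left to right; points are libraries, the bar is the mean and the whisker the SD (n = 3). For Cdc6, Orc1, Mcm10, Mcm4, Mcm7, Pold1 and Rrm2 every untreated KO library is above every library of the other groups, whereas Pcna overlaps between untreated KO and untreated WT and Rpa3 is lowest on average in untreated KO.

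Markers of other cells moved in the same comparison. Higher in untreated KO libraries were 10 of 10 markers of B cells, 10 of 10 of stromal cells and macrophages, 10 of 12 of myeloid cells, 8 of 11 of erythroid cells and 7 of 7 of T and NK cells that were tested, while 0 of 7 of megakaryocytes were higher and 1 was lower, and 9 of 12 stem cell markers were lower. Their part in the replication values was not tested. Untreated KO replicate 3 and treated KO replicate 2 were picked for high levels of such markers, though not every marker was highest there. The erythroid marker Slc4a1 was at 1.60 FPKM in treated KO replicate 2 and 3.20 in replicate 3. Without both libraries, 20 replication genes were higher in KO, and 2680 of 12432 genes in all. The untreated KO libraries that were kept still held more B cell marker RNA than any WT library. With a term for Y-linked RNA, set by whether the mean of the 4 genes reached 1 FPKM, the number of replication genes was 14, and 2499 of 12823 in all. When single libraries were left out it lay between 13, without untreated KO replicate 2, and 21, without untreated WT replicate 1. In those fits 2172 of 12558 and 2665 of 12748 genes in all were higher.

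Related genes of replication outside the 42 were counted from a further list of 62. Of these, 30 were higher (48.4%) and 3 were lower (4.84%) in untreated KO cells, with a median log2 fold change of 0.44. Of all genes tested 22.1% were higher and 23% were lower. E2f2, an activating E2F factor, had 10.2, 17.6 and 12.8 FPKM in KO against 1.54, 1.39 and 1.94 in WT (2.45 ± 0.20, adjusted p = 8.67e-06), and Ccne1, the cyclin that triggers S phase, had 182, 174 and 164 in KO against 28.1, 17.3 and 23 in WT (2.90 ± 0.28). The nucleoside kinase Dck (1.93) and the repressive factor E2f8 (1.79) completed the 4 of smallest p. The 3 that were lower were Dctpp1, which hydrolyses dCTP (−1.05), E2f5, a repressive E2F factor (−0.51), and the polymerase epsilon subunit Pole4 (−0.47). Of the 25 mitosis genes 24 were higher (96%), with a median of 1.37 and the smallest p for Plk1 (2.13), Kif20a (1.77) and Aurka (1.69). The median difference was thus 0.43 for the replication genes, 1.37 for the mitosis genes and −0.03 for all genes.

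The comparison of treated with untreated KO cells bears on the effect of the agonist in mice without thrombopoietin. Genes of origin licensing were lower with Romiplostim, 8 of 10 of them past the test, and ribonucleotide reductase was lower in both subunits. The small single-strand binding subunit Rpa3 was the exception and was higher. In all, 15 of 41 replication genes (36.6%) were lower and 1 was higher, while of all genes tested 18.9% were lower and 10.7% were higher. The median log2 fold change was −0.38 over the replication genes and −0.09 over all genes. This comparison shares the 3 untreated KO libraries with the one of untreated KO and WT cells, so that high values in those libraries raise the KO minus WT difference and lower the Romiplostim difference.

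Under licensing, Mcm4 had the smallest p, with 47.3, 51.8 and 47.2 FPKM in treated KO libraries against 97.3, 89.2 and 67.6 in untreated KO libraries (−0.77 ± 0.16, adjusted p = 0.00405). The groups did not overlap, and the treated libraries lay close together. Cdc6 had 30.5, 22.7 and 18.3 FPKM in treated and 53.1, 47.8 and 40.4 in untreated KO (−0.98 ± 0.21, adjusted p = 0.00615), and Orc1 had 14.2, 10.7 and 7.77 in treated and 22.9, 21.3 and 18.6 in untreated KO (−0.91 ± 0.20, adjusted p = 0.00622). Cdt1 (−0.83), Mcm2 (−0.82), Mcm5 (−0.70), Mcm7 (−0.67) and Mcm3 (−0.65) were lower as well. The remaining 2 were Mcm6, with a value of −0.52 ± 0.19 that did not pass (adjusted p = 0.0581), and Orc6, which had 88.5, 67.2 and 75.4 FPKM in treated and 71.2, 80.9 and 71.2 in untreated KO libraries (0.04 ± 0.12, adjusted p = 0.818). The treated and untreated values of Orc6 overlap, with an interval (95%) of −0.22 to 0.31.

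Of the helicase genes Mcm10 had 24.1, 19.2 and 18.8 FPKM in treated KO libraries against 41.9, 37.2 and 27.97 in untreated KO libraries (−0.75 ± 0.19, adjusted p = 0.0145), and Cdc45 was lower by a log2 fold change of −0.45. No GINS subunit passed, Gins3 with −0.47 (adjusted p = 0.061). Pold1 had 64.2, 74.9 and 59.5 FPKM in treated and 178, 166 and 113 in untreated KO (−1.17 ± 0.22, adjusted p = 0.003), and Pola2 was lower (−0.43 ± 0.13, adjusted p = 0.0281). Both are subunits that were higher in untreated KO than in untreated WT. Pole had 11.98, 12.4 and 17.9 FPKM in treated and 10.3, 11 and 8.19 in untreated KO, without overlap, but did not pass (0.47 ± 0.21, adjusted p = 0.113).

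No gene of the clamp and its loader passed at the adjusted criterion, and none had an unadjusted p under 0.05. Rfc4 had the smallest p among them, with 174, 166 and 132 FPKM in treated and 199.6, 219.7 and 173 in untreated KO (−0.33 ± 0.23, adjusted p = 0.289). The single-strand binding protein went in opposite directions in its subunits. Rpa1 had 67.2, 99.03 and 53.1 FPKM in treated and 160.2, 143 and 108 in untreated KO libraries (−0.92 ± 0.30, adjusted p = 0.0367), while Rpa3 had 198, 142 and 165 in treated and 115, 133 and 124 in untreated KO (0.42 ± 0.12, adjusted p = 0.025). Rpa2 had a value of −0.20 ± 0.18 and did not pass. The call of Rpa3 was lost under 6 of 16 alternatives and that of Rpa1 under 7, as were those of Pola2 under 8, of Cdc45, Rrm1 and Mcm3 under 6 each, of Mcm10 under 5 and of Mcm7 under 4.

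Rrm2 had 189, 207 and 134 FPKM in treated KO libraries against 535, 713 and 429 in untreated KO libraries, the largest change of the 41 (−1.65 ± 0.23, adjusted p = 0.000494). Every treated library was below every untreated one. Rrm1 had 104, 95.2 and 88.6 FPKM in treated and 173, 161 and 112 in untreated KO (−0.61 ± 0.19, adjusted p = 0.029). The ratio of Rrm2 to Rrm1 was 1.84 ± 0.33 in treated and 3.79 ± 0.67 in untreated KO libraries. Dut, Tk1 and Tyms had log2 fold changes of 0.12, −0.06 and −0.15 that did not pass. Chaf1a had 14.2, 13.5 and 12.5 FPKM in treated and 25.3, 22.7 and 14.8 in untreated KO, without overlap and without passing (−0.58 ± 0.23, adjusted p = 0.0828).

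The number of lower genes changed with single libraries and with the sex signal. It was 7 without untreated KO replicate 1, 8 without untreated KO replicate 2, 8 without treated KO replicate 3 and 19 without untreated KO replicate 3. Of all genes, 1378 of 12573, 1518 of 12558, 1572 of 12770 and 2012 of 12529 were lower in these fits, in that order. With the term for Y-linked RNA only Rrm2 was lower (−1.60, adjusted p = 0.0278) and 0 were higher. Calls fell over all genes as well, with 555 of 12823 lower and 215 higher, against 2420 and 1377 in the main fit. The other replication genes called in the main fit kept their direction with the term, with Pold1 at −0.89 (adjusted p = 0.127), Mcm4 at −0.54 (0.171), Mcm10 at −0.59 (0.254) and Rpa3 at 0.52 (0.129). Because all 3 treated KO libraries lacked and all 3 untreated KO libraries had Y-linked RNA, treatment and sex cannot be told apart within the KO, and the term, which is constant within each KO group, is estimated from the WT libraries. Markers of other cells moved with the comparison too: lower with Romiplostim were 10 of 10 for B cells, 9 of 10 for stromal cells and macrophages, 10 of 12 for myeloid cells and 5 of 11 for erythroid cells, while 8 of 12 stem cell markers were higher. Of the 7 megakaryocyte markers 3 were higher and 1 was lower, and of the 7 tested T and NK cell markers 1 was higher and 1 was lower. Their part in the result was not tested, and without the 2 libraries picked for high marker levels 21 replication genes were lower. In that fit 2775 of 12432 genes in all were lower. Under quantile normalization the median of all genes was 0.07 in place of −0.09, the share of higher genes among all called genes was 58.2% in place of 36.3%, and 13 replication genes were lower and 2 higher, namely Pole and Rpa3. Under median-of-ratios scaling that share was 47.4% and 12 replication genes were lower.

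**Figure D4:**
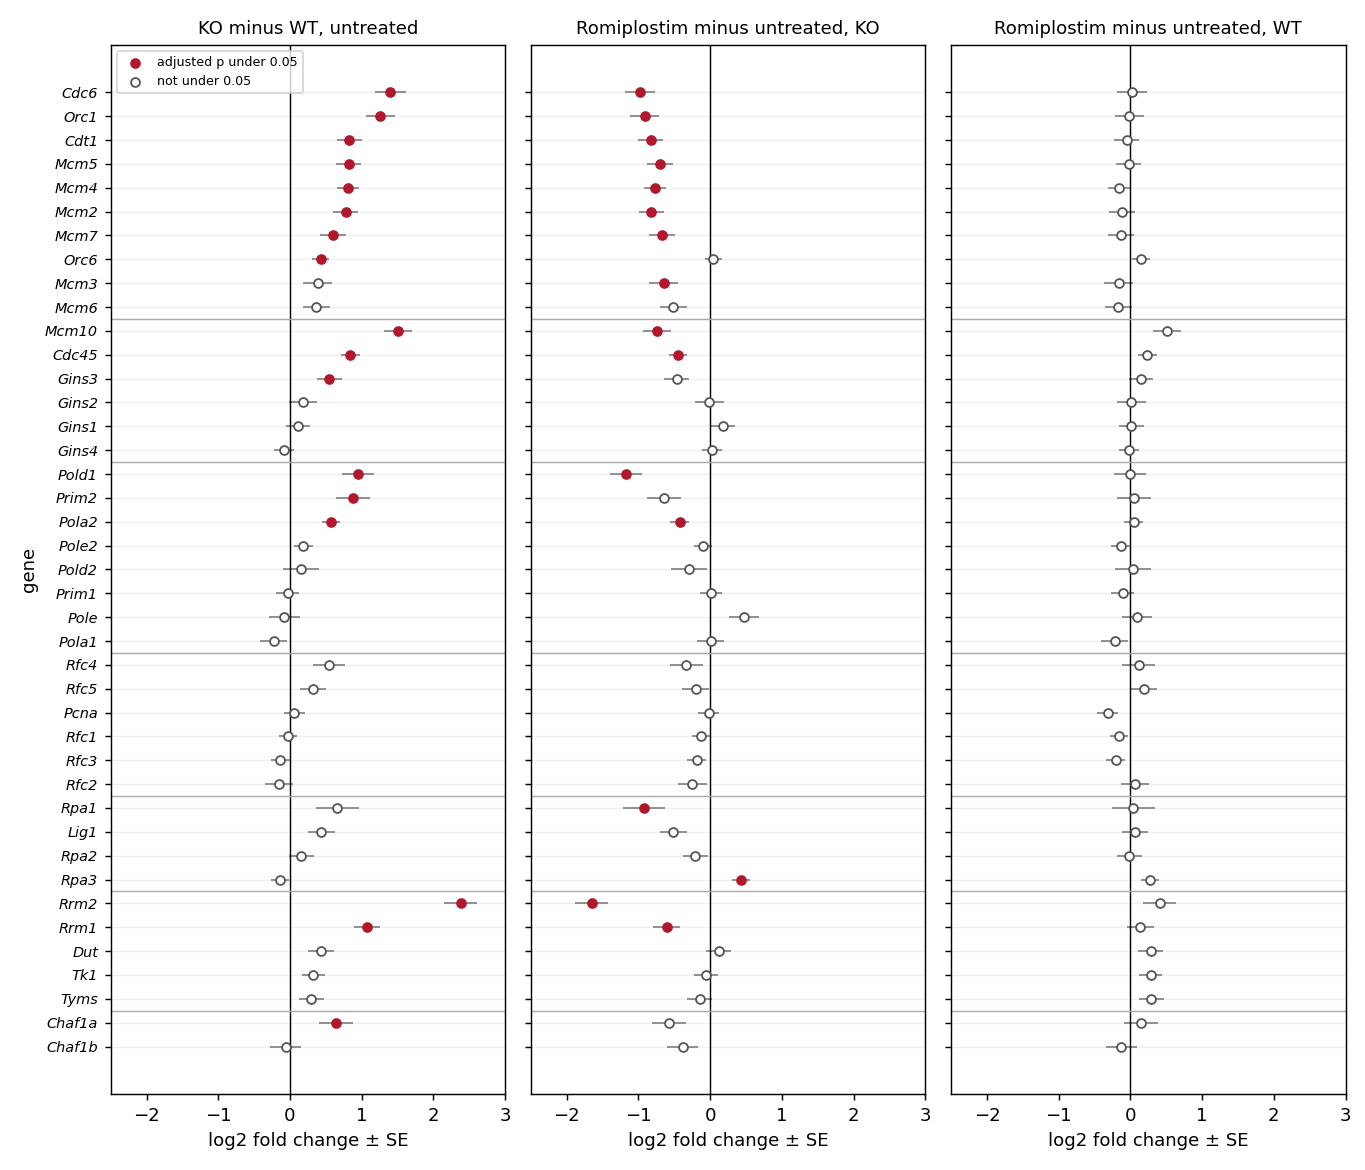
Log2 fold change ± SE of 41 replication genes, ordered by role and then by the difference in untreated cells, for KO minus WT without drug, Romiplostim minus untreated in KO, and Romiplostim minus untreated in WT; filled points passed an adjusted p under 0.05. Filled points lie right of 0 in the left panel (17), left of 0 in the middle panel except Rpa3 (15 and 1), and are absent from the right panel.

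Of the 62 related genes, 22 were lower (35.5%) and 2 were higher (3.23%) in treated KO cells. Of all genes tested 18.9% were lower and 10.7% were higher. E2f2 had 1.73, 2.98 and 2.38 FPKM in treated and 10.2, 17.6 and 12.8 in untreated KO (−2.10 ± 0.20, adjusted p = 5.07e-05). The fork protein gene Donson (−0.99), the pocket protein gene Rb1 (−1.02) and Dck (−1.28) were the next by p. Those that were higher were Dctpp1 (0.77) and Rnaseh2a, which helps to remove RNA from DNA (0.35). Of the mitosis genes 11 of 25 (44%) were lower, with a median of −0.52 and the smallest p for Plk1 (−0.88), Kif23 (−0.87) and Kif20a (−0.78).

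In WT cells Romiplostim was set against no drug to ask about the drug where thrombopoietin is present. No replication gene passed the test in either direction. The level of most was close in treated and untreated cells, with a median log2 fold change of 0.02. Genes of mitosis, in contrast, were higher in 9 of 25 cases. Of all genes tested 0.866% were higher and 0.975% were lower, so that 0 of 41 lies near the background. By limma, 2 of the 41 had an unadjusted p under 0.05, and the interval of each of the 41 lay within a 2-fold change in either direction.

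Mcm10 had 18.5, 14.96 and 17.9 FPKM in treated WT libraries against 11.5, 9.15 and 15.3 in untreated WT libraries, with the highest untreated library just above the lowest treated one (0.51 ± 0.19, adjusted p = 0.271, interval 0.08 to 0.93). Rpa3 had 159.5, 169.7 and 168 FPKM in treated and 137, 129.6 and 144 in untreated WT (0.27 ± 0.12, adjusted p = 0.375), and Rrm2 had 169.6, 126 and 125 in treated and 123, 81.3 and 112 in untreated WT (0.41 ± 0.23, adjusted p = 0.499). For both genes every treated library was above every untreated one, and neither passed. With 3 libraries in each group, a gene that does not differ separates like this, in either direction, with a probability of 0.1. Pcna had 493, 431 and 476 FPKM in treated and 598, 506 and 647 in untreated WT, without overlap and without passing (−0.32 ± 0.15, adjusted p = 0.38). Of licensing the smallest p was that of Orc6 (64.3, 58.3 and 60.6 FPKM in treated and 52.2, 52.6 and 60.4 in untreated WT; 0.15 ± 0.12), and of the polymerases that of Pola1 (29.1, 30.7 and 35.8 in treated and 40.4, 29.2 and 43.3 in untreated WT; −0.22 ± 0.19). These groups overlap. Chaf1a had 15.3, 13.4 and 13.96 FPKM in treated and 18.2, 8.78 and 12.8 in untreated WT (0.15 ± 0.23), and its value was −0.10 without untreated WT replicate 2.

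Deviations of same-numbered WT libraries were positively correlated, which does not establish that they are pairs. With the replicate number as a block and only the WT libraries in the fit, Mcm10 was called higher, so that 1 replication gene passed. In that fit 608 of 11938 genes were higher and 788 were lower, a larger share than that of the replication genes. None of the 62 related genes passed in treated WT cells, and 7 had an unadjusted p under 0.05. The mitosis genes had a median log2 fold change of 0.81, with the smallest p for Ccnb2 (1.11 ± 0.17, adjusted p = 0.00703), Aurka (1.08) and Plk1 (1.06). Ccnb2, a cyclin of mitosis, had 188, 144 and 133 FPKM in treated and 62.1, 69.8 and 80.7 in untreated WT libraries, with no overlap. The mean log2(FPKM + 1) of the 25 mitosis genes was 5.65 ± 0.12 in treated and 4.86 ± 0.27 in untreated WT, against 6.20 ± 0.10 and 6.16 ± 0.29 for the 41 replication genes.

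**Figure D5:**
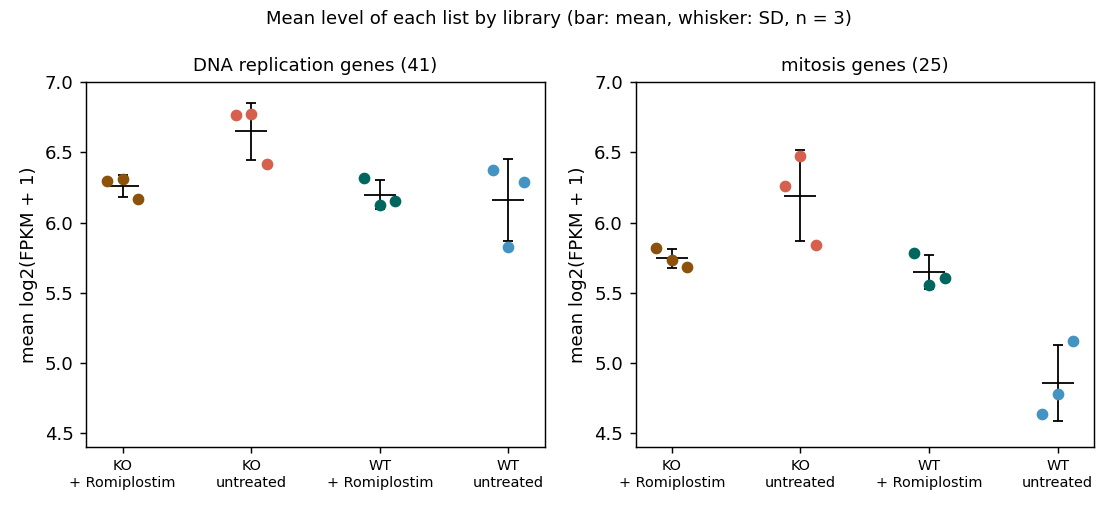
Mean log2(FPKM + 1) of 41 replication genes (left) and 25 mitosis genes (right) in each library of KO given Romiplostim, untreated KO, WT given Romiplostim and untreated WT; points are libraries, the bar is the mean and the whisker the SD (n = 3). The replication list lies at 6.20 in treated and 6.16 in untreated WT, while the mitosis list lies at 5.65 in treated and 4.86 in untreated WT.

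The interaction, which is the Romiplostim difference in KO minus that in WT, asks whether the drug acts differently in the 2 genotypes. It was below 0 and passed for Rrm2 (−2.06 ± 0.33, adjusted p = 0.00369), Mcm10 (−1.25 ± 0.28, adjusted p = 0.013), Cdc45 (−0.69 ± 0.18), Pold1 (−1.17 ± 0.32) and Cdc6 (−0.998 ± 0.30). The share of 5 in 41 (12.2%) is near that over all genes tested, of which 10% were lower, and 0 of 41 were higher against 5.53% of all genes. Rrm2, for instance, was at 177 ± 38.2 FPKM in treated and 559 ± 144 in untreated KO, but at 140.2 ± 25.5 in treated and 106 ± 21.8 in untreated WT. The 4 groups of Pold1 stood at 66.2 ± 7.87 and 152 ± 34.5 FPKM in treated and untreated KO and at 76.9 ± 7.43 and 79.3 ± 22.9 in treated and untreated WT. The median interaction of the 41 genes was −0.44, against −0.05 over all genes, and 15 had an unadjusted p under 0.05.

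By role, the smallest p among the remaining genes was that of Rpa1 for single-strand binding (−0.96 ± 0.42, adjusted p = 0.14), Chaf1a for chromatin assembly (−0.72 ± 0.33, adjusted p = 0.159) and Rfc5 for the clamp loader (−0.40 ± 0.26, adjusted p = 0.32). Rpa1 averaged 73.1 ± 23.5 FPKM in treated and 137 ± 26.8 in untreated KO, and 88.9 ± 18.5 in treated and 90.2 ± 37.6 in untreated WT. Orc1 (−0.90, adjusted p = 0.0527) and Cdt1 (−0.78, adjusted p = 0.0544) lay just outside the criterion. The call of Rrm2 was kept under all 21 alternatives and that of Mcm10 under all but the sex term, while the calls of Cdc45, Pold1 and Cdc6 were lost under 7, 8 and 14 of them. The number of lower genes was 2 without treated KO replicate 3, untreated KO replicate 1 or 2, or treated WT replicate 2 or 3, each left out alone, and 3 without treated WT replicate 1 or untreated WT replicate 2. It was 9 without untreated KO replicate 3, 10 without the 2 libraries picked for high marker levels, and 1, Rrm2, with the sex term. Of all genes, 1067 of 12529, 1677 of 12432 and 189 of 12823 were lower in these fits, in that order. With the sex term Mcm10 stood at −1.09 (adjusted p = 0.119), Pold1 at −0.89 (0.226) and Cdc6 at −0.78 (0.277). Under quantile normalization the median of all genes was 0.08 in place of −0.05, the share of higher genes among all called was 55.5% in place of 35.5%, and 4 replication genes were lower.

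Of the related genes, 16 (25.8%) had a lower interaction and 0 a higher one, against 10% and 5.53% of all genes tested. First by p were E2f2 (−2.27 ± 0.28), Dck (−1.63 ± 0.31), the origin firing factor Mtbp (−1.01 ± 0.19) and Donson (−1.04 ± 0.22). Of the mitosis genes 19 of 25 had a lower one, with a median of −1.26 and the smallest p for Plk1 (−1.94), Aurka (−1.77) and Kif20a (−1.69).

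When both genotypes received Romiplostim, KO cells were set against WT cells to ask how the genotypes compare when both are treated. No replication gene passed in either direction. Over all genes 0.632% were higher and 0.741% were lower in treated KO. The median log2 fold change of the 41 genes was 0.06, and every interval lay within a 2-fold change in either direction. By limma, 3 genes had an unadjusted p under 0.05. Orc6 had 88.5, 67.2 and 75.4 FPKM in treated KO libraries against 64.3, 58.3 and 60.6 in treated WT libraries, without overlap (0.32 ± 0.12, adjusted p = 0.181), and it was called higher without treated KO replicate 2, a fit in which 325 of 12778 genes were higher and 1240 were lower in KO. Pcna had 618, 549.6 and 632 FPKM in treated KO and 493, 431 and 476 in treated WT, also without overlap (0.36 ± 0.15, adjusted p = 0.202). The third was Rfc2, a clamp loader subunit, which did not pass either (−0.46 ± 0.20, adjusted p = 0.223).

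For the other roles the values of smallest p did not pass either. Rrm1 had 104, 95.2 and 88.6 FPKM in treated KO and 84.9, 68.97 and 74.7 in treated WT (0.33 ± 0.19), and Pole2 had 28.1, 24.4 and 25.6 in treated KO and 22.2, 21.1 and 23.2 in treated WT (0.22 ± 0.13). For both genes each KO library was above every WT library. Gins1 had 88.8, 77.1 and 86.5 FPKM in treated KO and 78.2, 66.8 and 63.5 in treated WT (0.28 ± 0.17), and Chaf1b had 89.8, 125 and 95.3 in treated KO and 141, 122 and 119 in treated WT (−0.31 ± 0.22). Rpa1 had 67.2, 99.03 and 53.1 FPKM in treated KO and 110.2, 76.9 and 79.5 in treated WT (−0.31 ± 0.30). These 3 overlap between the groups. Of the related genes only Ccne1 passed, with 99.5, 49.6 and 41.1 FPKM in treated KO and 23.1, 20.5 and 16.9 in treated WT (1.51 ± 0.28, adjusted p = 0.0238), and of the mitosis genes 0 of 25 passed.

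Treated KO cells were last set against untreated WT cells, to ask which differences from normal cells remain under the drug. Here 2 of 41 replication genes were higher and 0 were lower, while of all genes 2.93% were higher and 7.52% were lower. Mcm10 had 24.1, 19.2 and 18.8 FPKM in treated KO libraries against 11.5, 9.15 and 15.3 in untreated WT libraries (0.76 ± 0.19, adjusted p = 0.0301), and Orc6 had 88.5, 67.2 and 75.4 in treated KO against 52.2, 52.6 and 60.4 in untreated WT (0.47 ± 0.12, adjusted p = 0.0307). In both genes each KO library was above each WT library. Both calls were lost under 6 of 16 alternatives, including the fits without treated KO replicate 1 or 3, without untreated WT replicate 1 or 2, and with the sex term. Without treated KO replicate 2, alone or with untreated KO replicate 3, 4 replication genes were higher. In those fits 576 of 12778 and 642 of 12432 genes in all were higher.

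Rrm2 had 189, 207 and 134 FPKM in treated KO and 123, 81.3 and 112 in untreated WT, without overlap and without passing (0.73 ± 0.23, adjusted p = 0.0634). Pole had 11.98, 12.4 and 17.9 FPKM in treated KO and 7.47, 13.97 and 10.6 in untreated WT (0.39 ± 0.21), and Rpa3 had 198, 142 and 165 in treated KO and 137, 129.6 and 144 in untreated WT (0.28 ± 0.12). These groups overlap. Rfc3 had 89.6, 106 and 90.98 FPKM in treated KO and 133, 102 and 127 in untreated WT (−0.32 ± 0.13, adjusted p = 0.135), and Chaf1b had 89.8, 125 and 95.3 in treated KO and 188, 105 and 136 in untreated WT (−0.44 ± 0.22); both overlap. The intervals of 39 of the 41 genes lay within a 2-fold change in either direction. Of the related genes 6 were higher (9.68%, against 2.93% of all genes tested). The 4 of smallest p were Dbf4, the partner of the kinase that fires origins (0.90), the S phase cyclin Ccna2 (1.32), Ccne1 (1.36) and E2f8 (0.99). The pocket protein gene Rbl2 was lower (−0.56) and was the only 1 of the 62 in that direction. Of the mitosis genes 20 of 25 were higher, with a median of 0.90 and the smallest p for Ccnb2 (1.22), Plk1 (1.25) and Ccnb1 (1.44). Under median-of-ratios scaling, which put the median of all genes at 0.02 in place of −0.10, 4 replication genes were higher, and the share of higher genes among all called genes was 45.9% in place of 28.1%.

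The promoter words were set beside the calls. Of the 15 genes that were higher in untreated KO than in untreated WT cells and had a promoter in the table, 7 held an E2F word, as did 6 of the 19 that did not pass. Orc1, Cdc6 and Pold1, whose words are capitalised above, were among the 7, while Mcm6 and Rfc3 were among the 6. Rrm2 and Mcm10, with the largest changes, held no such word in this window, which says only that these letters are not there. The Mcm10 window ends in TTTGGCG, so a word running past its end would be missed.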

How the data were processed

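RNA was sequenced from sorted hematopoietic stem cells in 12 libraries, 3 in each of 4 groups, with the SMARTer Ultra Low RNA kit, whose reads carry no strand, and paired ends, per the labels' protocols. FPKM values per gene and library were deposited by the authors. TopHat2, Cufflinks 2.2.1 and mm10 are named in the submitters' processing notes, and the annotation release and filters are not given in the sources used here. Of 35275 gene identifiers, 34490 matched a symbol and position in GENCODE M21 on mm10. Depth was estimated from the steps of low FPKM values (38.2% to 43.2% of them were whole fragments within 0.05).

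The values were converted to log2(FPKM + 1), on which fold changes of low genes are understated. With limma 3.58.1 in R 4.3.3, 1 model of the 4 group means over the 12 libraries was fitted for the 12823 genes with at least 1 FPKM in at least 3 libraries, with an intensity trend. P-values are two-sided and adjusted by Benjamini-Hochberg over all genes tested in each of 6 comparisons, with adjusted p under 0.05 as the criterion, since an exact test of 3 against 3 cannot go below 0.1. The fit was tested on simulated data with few changed genes and independent noise for each gene, so shifts shared by many genes of a library were not covered. Alternatives were a pseudocount of 0.1, no filter or a filter of 5 FPKM, quantile and median-of-ratios scaling, no trend, only the groups compared, a replicate block and each library left out. Per comparison the gene of smallest p in each role was given in every library, with any gene called against the majority, the 4 related genes of smallest p in each direction and 3 mitosis genes. Genes named beside these were chosen after their values were seen. The members and lists were chosen with earlier results of these data known. For same-numbered treated and untreated WT libraries, the deviations from the group means had correlations of 0.403, 0.123 and 0.383. Those of the other pairs of groups lay between −0.191 and 0.19. The labels give no pairing and differently numbered libraries were not compared, so a pairing by number was not established. Y-linked RNA differed between the treated and untreated WT libraries of replicates 1 and 2.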

Additional observations from a re-analysis of the deposited data

Results flagged for a closer look

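The Romiplostim difference differed between KO and WT cells by limma's interaction test (KO difference minus WT difference) for 5 of 41 replication genes (12.2%), near the share over all genes tested, of which 10% had a lower interaction. These were Rrm2 (−2.06), Mcm10 (−1.25), Cdc45 (−0.69), Pold1 (−1.17) and Cdc6 (−0.998). It also differed for the related genes E2f2 (−2.27), Dck (−1.63), Mtbp (−1.01) and Donson (−1.04) and for the mitosis genes Plk1 (−1.94), Aurka (−1.77) and Kif20a (−1.69). Every one of these values is below 0. The calls of Cdc45, Pold1 and Cdc6 were lost under 7, 8 and 14 of 21 alternatives. Y-linked RNA was low in all treated and high in all untreated KO libraries, so that treatment and sex cannot be told apart within the KO.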

How the results depend on the processing

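The replication gene of smallest p in each role was followed in each comparison under each alternative. Of these values, 220 called ones stayed past the criterion in the same direction and 56 did not. Of those not called, 423 stayed so, 14 passed and 1 changed sign. Related and mitosis genes were not part of this count. Chaf1a in treated against untreated WT ranged from −0.10 to 0.39 when single libraries were left out. With the replicate block, 17 replication genes were higher in untreated KO than in untreated WT and 16 were lower with Romiplostim in KO; with the replicate block and WT groups only, 1 was higher with Romiplostim in WT, where 608 of 11938 genes in all were higher and 788 lower. With Romiplostim in KO, the number higher was 2 under quantile normalization, 0 with only the compared groups in the fit, 0 with the sex term and 0 to 1 when single libraries were left out, and the number lower was 1 with the sex term and 7 to 19 when single libraries were left out. In the fit with the sex term 555 of 12823 genes in all were lower and 215 were higher. For KO against WT, both on Romiplostim, the number higher was 1 without both libraries picked for high levels of other-cell markers and 0 to 1 when single libraries were left out. For treated KO against untreated WT it was 4 under median-of-ratios scaling, 4 without both marker-high libraries, 0 with only the compared groups, 0 with the sex term and 0 to 4 when single libraries were left out. The number with a lower interaction was 3 without the filter, 10 without both marker-high libraries, 1 with the sex term and 2 to 9 when single libraries were left out. The sex term, the marker-high libraries and the WT-only block were chosen after seeing the data. The causes were not tested. Fen1, under 1 FPKM in all libraries, was left out of the main fit by the filter.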
